A study of Homo sapiens with 8 samples.

Results

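U6 small nuclear RNA is present in the human annotation as a handful of genes and a very large family of copies. In the small RNA count table analysed here, 281 of 2962 features were U6 features, chosen by name alone: those beginning with RNU6- followed by a number, RNU6V, and those named U6 with a number, with the minor-spliceosome RNU6ATAC family left out. They comprised 5 genes whose symbols lack the trailing P of a pseudogene (RNU6-1, RNU6-2, RNU6-7, RNU6-8 and RNU6-9) and 276 copies, of which 268 had RNU6-numberP symbols. The libraries came from HEK293, an established line of human embryonic kidney cells, transfected with RNAiMax and 50 nM of either a scramble control mimic or a mimic of a 3′ fragment of tRNA-Asp-GTC (a tRNA-derived RNA, tDR), and collected after 48 h. Total RNA was made into libraries by OTTR-seq, a method in which a reverse transcriptase joins both adapters while copying the RNA, with 4 libraries per mimic and no untransfected group. Whether the 4 libraries of a mimic came from separately grown cells is not stated by the labels. The p-values therefore reflect how far these libraries lie apart, a spread that may be technical, in 1 cell line given a synthetic mimic. Total counts ranged from 4016295 to 10246336 per library. Levels are given as CPM (counts scaled to a common library total), scaled between libraries by the trimmed mean of M values (TMM).

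U6 is the catalytic RNA of the spliceosome. It enters the spliceosome base-paired to U4, is released from it, and then pairs with U2 and, through its ACAGAGA box, with the 5′ splice site of the intron. RNA polymerase III transcribes it from a promoter that lies wholly upstream of the transcript, and transcription ends in a run of T on the coding strand, which gives the RNA a 3′ oligo(U) tail that the La and LSm proteins bind. U6 RNA has been copied back into the human genome many times, and most of those copies lack the upstream promoter. U6 is widely used as a reference RNA in small RNA assays, and RNU6B, a common reference assay, is a synonym of the copy RNU6-6P in RefSeq.

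Of the 281 features, 274 were matched by symbol to transcripts of GENCODE release 29 (GRCh38) and to RefSeq, which lists 5 as snRNA genes and 269 as pseudogenes. Set against the protein-coding genes of that annotation alone, 111 lay in introns (47 on the host's strand), 3 overlapped an exon and 160 lay outside. The 160 are called intergenic here, and overlap with noncoding genes was not examined. Their lengths ran from 60 to 115 nt, with 147 at exactly 107 nt, the length of RNU6-1, and the median number of edits to RNU6-1 was 13. The 107 nt annotated for RNU6-1 (chromosome 15, intergenic) are also annotated for RNU6-2, RNU6-9, RNU6-3P, RNU6-4P, RNU6-5P and RNU6-6P. ACAGAGA was found in 170 of the 274 sequences (62.0%), against 18 of 582 other snRNA transcripts of the same annotation (3.09%); its reverse complement TCTCTGT was in 0 of the 274 and in 7 of the 582. The match describes letters only.

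A pair of copies is shown because they stand at different levels and retain different lengths of the RNU6-1 sequence at the 3′ end. Capitals mark the unbroken 3′ terminal stretch identical to RNU6-1, which ends in the T run of the terminator, and the letters are given 5′ to 3′. RNU6-1336P is at chr4:168686608-168686716 (minus strand, in an intron of PALLD) and RNU6-463P at chr10:105534659-105534765 (plus strand, intergenic).
RNU6-1336P: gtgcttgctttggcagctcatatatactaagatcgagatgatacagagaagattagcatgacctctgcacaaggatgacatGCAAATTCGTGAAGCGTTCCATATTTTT
RNU6-463P: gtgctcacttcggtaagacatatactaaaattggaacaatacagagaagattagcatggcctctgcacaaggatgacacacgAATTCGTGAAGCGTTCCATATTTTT
Longer stretches are retained by RNU6-40P, RNU6-46P and RNU6-36P, all intergenic. Some members are nearly identical to RNU6-1: RNU6-7 and RNU6-8 (chromosome 14, intergenic) differ from it at 1 base, the last, RNU6-37P (in an intron of KIF1B) and RNU6-11P at the last 2 bases, and RNU6-17P and RNU6-18P at 1 internal base.

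RNU6-1 had the highest count of any U6 feature in 8 of 8 libraries, and the other 4 genes were far below it. Its level was 4287, 5037, 4692 and 3757 CPM in scramble libraries 1 to 4, and 4651, 4766, 3981 and 3416 CPM in tDR libraries 1 to 4. The groups overlapped, with library 4 lowest in both. As a share of all counts, RNU6-1 lay between 0.344% (tDR library 4, exact 95% Clopper-Pearson interval 0.340% to 0.348%) and 0.520% (scramble library 2, 0.516% to 0.525%), so that counting error is small beside the spread between libraries.

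RNU6-9 was at 713, 845, 790 and 582 CPM in the scramble libraries and at 703, 685, 708 and 547 CPM in the tDR libraries. RNU6-2 was at 461, 526, 491 and 352 CPM against 426, 438, 491 and 374 CPM. In both genes the groups overlapped and library 4 was again the lowest of each. RNU6-7 and RNU6-8, neighbours on chromosome 14 with the same sequence, had mean levels of 420.0 and 419.7 CPM; their counts and those of RNU6-2 stayed within 10% of each other, or within 3 counts, in every library. RNU6-2 was above both of them in 8 of 8 libraries, by less than 10%, and RNU6-7 was above RNU6-8 in 6 of 8.

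Several copies reached the level of RNU6-1, and since the copies set against it here are 106 to 109 nt long, CPM is used without division by length. RNU6-6P and RNU6-5P, with its exact sequence, averaged 4314 and 4312 CPM over the 8 libraries beside 4324 CPM for RNU6-1, and RNU6-36P, which differs at 1 base near the 5′ end, averaged 4150 CPM. The counts of these copies stayed within 10% of those of RNU6-1 in every library, so their levels are not to be taken as separate measures. RNU6-19P (in an intron of HACD3, on the opposite strand) averaged 3638 CPM, RNU6-12P (intergenic) 3634 CPM and RNU6-145P (in an intron of SHROOM3) 3625 CPM. Most features were far lower: 16 features averaged at least 1000 CPM, 48 at least 100 CPM, and 107 less than 1 CPM, with a median of 1.35 CPM over all 281. 78 features had a count of 0 in at least 1 library, where 3 counts, the most that a count of 0 allows, correspond to between 2.93e-05% and 7.47e-05% of a library.

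**Figure D1:**
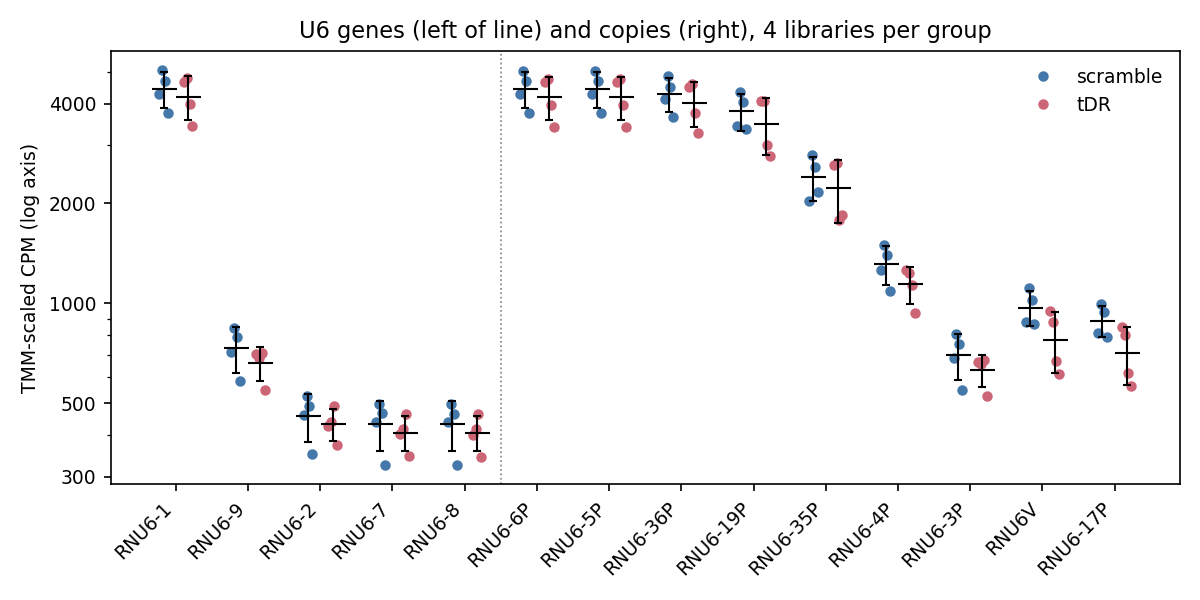
TMM-scaled CPM (log axis) of the 5 U6 genes (left of the dotted line) and of 9 copies (right), with 1 point per library, scramble in blue and tDR in red, and the mean with its SD in black. RNU6-6P, RNU6-5P and RNU6-36P sit beside RNU6-1 near 4000 CPM, while RNU6-2, RNU6-7 and RNU6-8 sit near 420 CPM, and the points of the 2 mimics overlap in every gene.

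Counts did not follow the annotated sequence alone. The 7 features with the sequence of RNU6-1 spanned 9.72-fold in mean level, from RNU6-1 (4324 CPM) through RNU6-4P (1226 CPM), RNU6-9 (697 CPM) and RNU6-3P (665 CPM) to RNU6-2 (445 CPM). RNU6-12P, RNU6-32P and RNU6-13P, identical to each other, spanned 14.2-fold, from 3634 to 256 CPM. A set of 9 identical copies led by RNU6-791P spanned 20.5-fold, from 23.1 to 1.13 CPM. Conversely, RNU6-17P and RNU6-18P had the same mean level (797 CPM), as did RNU6-37P (554 CPM) and RNU6-11P (553 CPM) to within 1 CPM. The sources used here do not say how reads matching several features were assigned, and bases flanking the annotated features were not used here; the part either has in these differences was not tested. Grouping features whose counts agreed within 10% or 3 counts in every library left 158 read sets, of which 105 held a single feature. Members of 1 read set may rest on the same reads. Features with few counts can also meet this limit without sharing reads, such as RNU6-1304P (0 to 7 counts), grouped with RNU6-501P. At high counts the agreement was close: RNU6-1 had 33756, 53122, 20892 and 43140 counts in the scramble libraries, and RNU6-6P had 33700, 53001, 20838 and 43024. Whether the reads are shared was not tested, and levels within 1 read set are not to be taken as separate measures.

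Across members, level went with the length of the 3′ terminal stretch shared with RNU6-1. RNU6-463P, with 25 nt, averaged 1609 CPM; RNU6-1336P, with 28 nt, 2309 CPM; RNU6-40P, with 37 nt, 3332 CPM; RNU6-46P, with 40 nt, 3511 CPM; and RNU6-36P, with 97 nt, 4150 CPM. The order RNU6-1, RNU6-36P, RNU6-46P, RNU6-40P, RNU6-1336P, RNU6-463P held in 8 of 8 libraries. This series was picked after the values were seen, so its order describes these features alone, and copies that break it are given below. RNU6-35P, RNU6-434P and RNU6-1336P all share 28 nt with RNU6-1 but carry 4, 8 and 14 edits over their length, and their mean levels were equal (2310, 2310 and 2309 CPM).

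Equal stretches did not always go with equal levels. RNU6-73P also shares 28 nt and averaged 440 CPM, RNU6-17P shares 41 nt at 797 CPM, RNU6-13P 41 nt at 256 CPM, and RNU6-33P, which differs from RNU6-1 at 1 base, 95 nt at 410 CPM. Of the 55 features sharing at least 19 nt, 43 averaged at least 100 CPM (78.2%), against 4 of the 219 sharing fewer (1.83%). Those 4 were RNU6-7, RNU6-8, RNU6-37P and RNU6-11P, which differ from RNU6-1 only in the last bases. The limit of 19 nt was chosen after the values were seen. Over the 274 features with a sequence, which share libraries and reads, Spearman's rho with mean CPM was 0.51 for the 3′ stretch, 0.32 for the matching 5′ stretch and -0.53 for the number of edits; these are descriptions across features, not over independent samples. The median level was 2.86 CPM in features with the ACAGAGA box and 1.08 CPM in those without it.

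**Figure D2:**
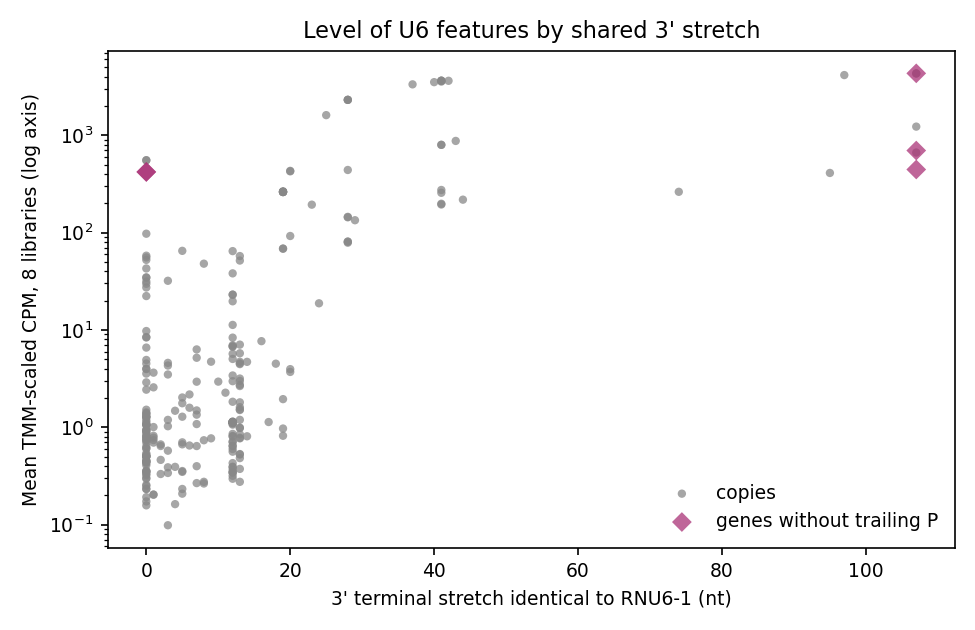
Mean TMM-scaled CPM over the 8 libraries (log axis) against the length in nt of the 3′ terminal stretch identical to RNU6-1, for the 274 U6 features with a sequence, genes as diamonds and copies as circles. Features sharing at least 19 nt mostly lie above 100 CPM, those sharing fewer mostly below 10 CPM, and the 7 features at 107 nt, which have the same sequence, are spread from 445 to 4324 CPM.

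Because U6 is used as a reference, the members were also read relative to RNU6-1 within each library, which removes the scaling between libraries. RNU6-36P stayed between 94.2% and 97.1% of the RNU6-1 count in the 8 libraries. Copies outside its read set moved more: RNU6-46P lay between 72.6% and 86.3%, RNU6-1336P between 44.7% and 57.7%, and RNU6-463P between 30.6% and 40.9%. In all 3 of them tDR library 3 was the lowest, scramble library 1 the next lowest and scramble library 4 the highest, so the 2 mimics overlapped.

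RNU6-4P, with the sequence of RNU6-1, was at 29.3%, 29.9%, 29.8% and 28.95% of RNU6-1 in the scramble libraries and at 27.1%, 25.8%, 28.5% and 27.4% in the tDR libraries. RNU6-17P was at 19.05%, 19.8%, 20.01% and 21.1% against 18.3%, 16.8%, 15.5% and 16.5%. RNU6-13P was at 6.81%, 6.11%, 6.31% and 6.48% against 5.32%, 5.09%, 5.71% and 5.67%. In all 3 copies every tDR library was below every scramble library. RNU6-2, at 9.36% to 10.7% in the scramble and 9.16% to 12.3% in the tDR libraries, overlapped, as did RNU6-9 and RNU6-7.

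Of the 141 other U6 features that passed the filter on low counts, 18 had lower ratios to RNU6-1 in every tDR library than in every scramble library (12.8%) and 6 had higher ones (4.26%), beside 2.44% lower and 8.8% higher over all 1761 features tested. Among the 47 of them that averaged at least 100 CPM, 12 were lower, in 9 read sets, and 0 higher. The 2.44% and 8.8% cover features of every level. The shares over all features at that level were not computed, so whether this count is particular to U6 was not tested. All of these ratios share RNU6-1 as their denominator, and the pattern was noticed in the data, so it is given without a test.

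**Figure D3:**
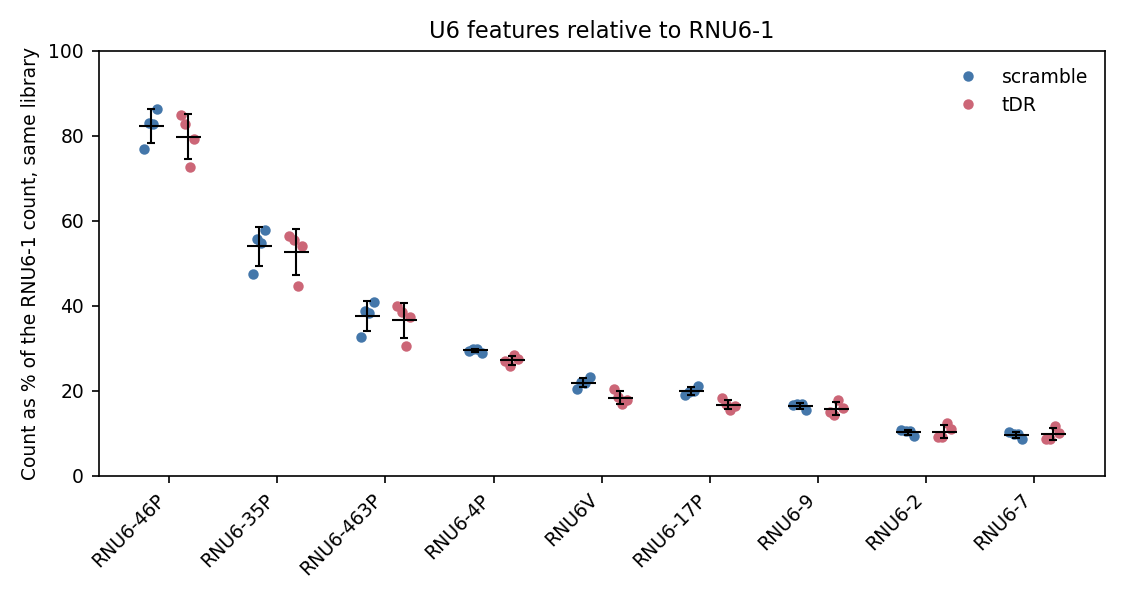
Count of 9 U6 features as a percentage of the RNU6-1 count in the same library, 1 point per library, scramble in blue and tDR in red, with the mean and SD in black. In RNU6-4P, RNU6V and RNU6-17P the tDR points all lie below the scramble points, narrowly for RNU6V, while in the other 6 features the groups overlap.

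The tDR mimic was then compared with the scramble mimic in 1 fit across all 1761 features that passed the filter on low counts, using the quasi-likelihood test of edgeR and p-values adjusted by the Benjamini-Hochberg method. 142 U6 features passed the filter, the 5 genes and 137 copies, and 139 did not. At an adjusted p below 0.05, 7 of the 142 changed, 2 higher and 5 lower in tDR (4.93%), against 6.7% of all features tested (5.34% higher and 1.36% lower). At an unadjusted p below 0.05 there were 38 U6 features (26.8%; 10 higher and 28 lower), against 21.5% of all. Beyond the spread of the libraries, 11 U6 features had CPM lower in every tDR library (7.75%) and 3 higher (2.11%), against 5.51% and 7.78% of all features. In bulk RNA, fewer cells and less RNA per cell cannot be told apart.

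None of the 5 genes passed the test, 0 had an unadjusted p below 0.05, and 0 were called by DESeq2, limma-voom or limma on the deposited normalized values. RNU6-1 had a log2 fold change of -0.08 (SE 0.14, 95% interval -0.38 to 0.22, edgeR adjusted p = 0.8293), RNU6-9 of -0.15 (SE 0.16, interval -0.48 to 0.19, edgeR adjusted p = 0.679) and RNU6-2 of -0.08 (SE 0.16, interval -0.42 to 0.26, edgeR adjusted p = 0.849). RNU6-7 and RNU6-8 had log2 fold changes of -0.08 and -0.09, with an edgeR adjusted p of 0.844 each. The highest copies gave like values, from -0.08 for RNU6-6P, the RNU6B reference, to -0.12 for RNU6-19P (edgeR adjusted p = 0.8293 and 0.744). All of these signs turned under scaling on microRNAs alone, where RNU6-1 was at 0.23, RNU6-9 at 0.18 and RNU6-6P at 0.23, and that scaling moved the median over all features from 0.02 to 0.36.

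The 5 copies that fell were all low, each below 50 CPM in every library. They are printed because they carry the calls, with the last 5 bases, where RNU6-1 has its T run, in capitals. RNU6-256P is at chr11:122004355-122004451 (plus strand, intergenic), RNU6-216P at chr11:74968189-74968292 (minus strand, in an intron of SPCS2), RNU6-1094P at chr3:96608814-96608917 (minus, intergenic), RNU6-429P at chr5:11027200-11027307 (plus, in an intron of CTNND2) and RNU6-236P at chr5:139717985-139718090 (minus, intergenic).
RNU6-256P: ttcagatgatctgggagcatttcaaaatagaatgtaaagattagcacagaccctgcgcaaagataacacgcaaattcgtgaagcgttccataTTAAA
RNU6-216P: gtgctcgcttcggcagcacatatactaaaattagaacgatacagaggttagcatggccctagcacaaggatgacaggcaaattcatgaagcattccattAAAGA
RNU6-1094P: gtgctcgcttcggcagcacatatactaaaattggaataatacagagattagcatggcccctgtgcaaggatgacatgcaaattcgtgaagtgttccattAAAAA
RNU6-429P: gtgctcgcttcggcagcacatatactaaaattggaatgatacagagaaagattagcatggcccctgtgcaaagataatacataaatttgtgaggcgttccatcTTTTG
RNU6-236P: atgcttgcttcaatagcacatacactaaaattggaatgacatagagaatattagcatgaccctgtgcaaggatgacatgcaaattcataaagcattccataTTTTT

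RNU6-256P was at 39.0, 33.6, 36.2 and 36.1 CPM in the scramble libraries and at 24.9, 29.1, 19.3 and 20.1 CPM in the tDR libraries. RNU6-216P was at 34.2, 31.6, 38.0 and 28.4 CPM against 21.9, 22.9, 22.0 and 19.4 CPM. In both, every tDR library lay below every scramble library. RNU6-256P fell by 0.63 on the log2 scale (SE 0.17, edgeR adjusted p = 0.0274) and RNU6-216P fell by 0.61 (SE 0.16, edgeR adjusted p = 0.0266).

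RNU6-1094P was at 47.2, 38.0, 46.9 and 34.1 CPM in the scramble libraries against 26.8, 27.9, 30.1 and 26.7 CPM in the tDR libraries. RNU6-429P had nearly the same counts in every library, so the pair is best read as 1 result: it fell by 0.59 on the log2 scale (SE 0.16, edgeR adjusted p = 0.0296) and RNU6-1094P fell by 0.57 (SE 0.16, edgeR adjusted p = 0.0365). RNU6-236P was at 9.14, 13.0, 11.9 and 8.80 CPM against 7.91, 5.92, 4.45 and 5.59 CPM, and fell by 0.84 on the log2 scale (SE 0.24, edgeR adjusted p = 0.0383). In none of these copies did the groups overlap. RNU6-280P, among the 4 lowest fold changes of copies with a mean count of at least 20, was at -0.60 and did not pass the test (SE 0.21, edgeR adjusted p = 0.0976). Copies with fewer counts reached -0.97 (RNU6-562P, edgeR adjusted p = 0.286).

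The 2 copies that rose were close to the limit of detection. RNU6-21P (chromosome 16) and RNU6-737P (chromosome 18) are both intergenic, end in 5 T, and carry 5 and 8 edits to RNU6-1. RNU6-21P had 2, 11, 4 and 10 counts in the scramble libraries and 13, 14, 18 and 18 in the tDR libraries, and rose by 1.51 on the log2 scale (SE 0.44, edgeR adjusted p = 0.041). RNU6-737P had 12, 18, 9 and 13 counts against 31, 27, 30 and 16, and rose by 1.25 (SE 0.35, edgeR adjusted p = 0.0344). In CPM neither overlapped between the mimics. RNU6-21P passed the filter on low counts only through the tDR libraries, where it was high, so its call is not independent of that filter. With no filter it was not called (edgeR adjusted p = 0.0559). With total counts neither copy was called (edgeR adjusted p = 0.0858 for RNU6-21P and 0.0783 for RNU6-737P).

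The 7 calls depended on single libraries, on the scaling and on the design. With the replicate number added to the fit as a block, 0 of 142 U6 features were called, beside 39 of 1761 over all features. The 5 copies that fell were each lost without tDR library 4 and under scaling on microRNAs alone, and both copies that rose were lost when any 1 scramble library was left out. Without tDR library 4 the count of U6 features called was 1 of 168, beside 87 of 1852 over all features. Without tDR library 1 it was 28 of 160 (16 higher and 12 lower), beside 164 of 1840 (117 higher and 47 lower). Of the copies with a mean count of at least 20, those with the largest positive changes did not pass the test: RNU6-164P was at 1.01 (edgeR adjusted p = 0.226), RNU6-1225P at 0.86 (edgeR adjusted p = 0.137), RNU6-105P, which overlaps an exon of ZNF638 on the opposite strand, at 0.69 (edgeR adjusted p = 0.345) and RNU6-658P, in an intron of GFM2, at 0.65 (edgeR adjusted p = 0.23). Among copies with fewer counts, RNU6-620P was at 1.14 (edgeR adjusted p = 0.32), and RNU6-1201P at 1.08 (edgeR adjusted p = 0.0975) with no overlap between the mimics; these were named after their values were seen, and the called RNU6-21P and RNU6-737P also lie below a mean count of 20.

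Most U6 features lay on the negative side of the comparison with TMM scaling, and on the positive side with scaling on microRNAs alone. The median log2 fold change with TMM was -0.21 over the 142 U6 features (quartiles -0.35 and 0.09), -0.08 over the 5 genes and -0.22 over the 137 copies, beside 0.02 over all features tested (quartiles -0.21 and 0.26). Scaled on microRNAs alone, these medians were 0.12, 0.25 and 0.11, beside 0.36 over all features. Of the 142, 100 were negative with TMM (70.4%), against 47.8% of all. The shift differed by level. Among U6 features averaging at least 10 CPM, 76 of 79 were negative with TMM, against 45.9% of the 973 features at that level, and 33 of 79 with scaling on microRNAs alone, against 12.7%. The medians with TMM were -0.27 and 0.03. The 3 exceptions were RNU6-48P (0.20), RNU6-15P (0.18) and RNU6-10P (0.42), none of which passed the test. With each read set taken once, 44 of 47 were negative, against 42.7%. Among the 63 U6 features below 10 CPM, 24 were negative and the median was 0.09. The level classes were chosen after the values were seen.

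By level class, the median was -0.37 in the 31 U6 features from 10 to 100 CPM, beside 0.04 over all features at that level. It was -0.27 in the 32 from 100 to 1000 CPM, beside 0.05. In the 16 above, which include RNU6-1, it was -0.11, beside -0.06 over the 102 features there, of which 61.8% were negative. Relative to the median of all features, the median over the 142 was at -0.23 with TMM and at -0.24 on microRNAs alone. A change of scaling moves all features nearly alike, so it cannot test this difference. Without tDR libraries 3 and 4 the difference was -0.08. Without tDR libraries 3 and 4, 60 of the 79 were negative, against 49.3%, and the classes parted. From 10 to 100 CPM the median was -0.226, beside 0.081 over all features at that level, and 28 of 31 were negative, against 41.7%. From 100 to 1000 CPM the median was -0.086, beside -0.064. Above 1000 CPM it was 0.106, beside -0.005, and 15 of 16 were positive.

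**Figure D4:**
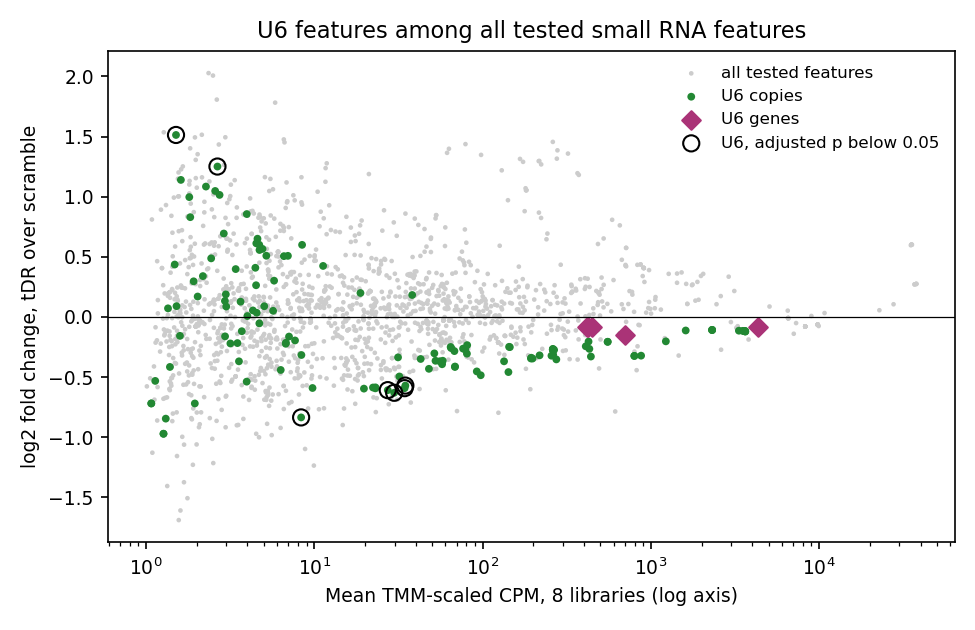
Log2 fold change, tDR over scramble, against mean TMM-scaled CPM (log axis) for all 1761 tested features (grey), U6 copies (green), U6 genes (diamonds) and the 7 U6 features with an edgeR adjusted p below 0.05 (black rings). With the TMM scaling plotted, 76 of 79 U6 features at or above 10 CPM lie below 0 (33 of 79 under scaling on microRNAs alone), and those below 10 CPM lie on both sides.

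The members were also grouped by their 3′ end. Of the tested features with a sequence, 33 did not end in T, RNU6-7 and RNU6-8 among them, and 97 ended in 5 T as RNU6-1 does. The share of negative log2 fold changes was alike in the 2 classes, 24 of 33 and 71 of 97. The features not ending in T had a median log2 fold change of -0.36, with 4 called lower and 0 higher, and 6 lay lower and 0 higher in every tDR library. Those ending in 5 T had a median of -0.16, with 1 called lower (RNU6-236P) and 2 higher, and 4 lay lower and 3 higher in every tDR library. Over all features tested, 1.36% were called lower and 5.34% higher, and 5.51% lay lower and 7.78% higher in every tDR library. The calls by class did not hold when libraries were left out. Without tDR library 1, 6 of 41 not ending in T were called higher and 6 lower. Of the 103 ending in 5 T, 7 were called higher and 5 lower there, beside 117 higher and 47 lower of 1840 features. Without tDR library 4, and with the replicate number as a block, 0 features not ending in T were called. The difference of the medians was -0.20, and it kept its sign in the 16 alternatives in which it was computed, from -0.08 to -0.20. A change of scaling moves both classes nearly alike, and every alternative reuses these libraries, so the kept sign is not separate support. Under scaling on microRNAs alone the medians were -0.04 and 0.13. The difference was not computed with no filter, with TMM without the U6 features, by DESeq2's Wald test or by limma on the normalized signal. The classes were chosen after the values were seen and differ in level, with a median of 8.45 CPM in those not ending in T and 68.4 CPM in those ending in 5 T; the part of level in the difference was not tested.

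The shift was uneven between the tDR libraries. Taking each feature's log2 CPM against its scramble mean, the median over the 137 copies was -0.02 in tDR library 1, -0.04 in library 2, -0.35 in library 3 and -0.39 in library 4, and in the scramble libraries it ran from -0.17 (library 4) to 0.19 (library 2). The median over all tested features stayed between -0.07 and 0.09 in every library. Of the 5 genes, RNU6-1 and RNU6-9 were also below their scramble means in tDR library 3 (3981 beside 4443 CPM and 708 beside 733 CPM), whereas RNU6-2, RNU6-7 and RNU6-8, which form 1 read set, were above theirs and set the median of 0.12 there. The median over the genes was -0.31 in tDR library 4 and -0.36 in scramble library 4. Without tDR libraries 3 and 4, chosen after the data were seen, the median log2 fold change of the copies was -0.03 and that of the genes -0.08.

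**Figure D5:**
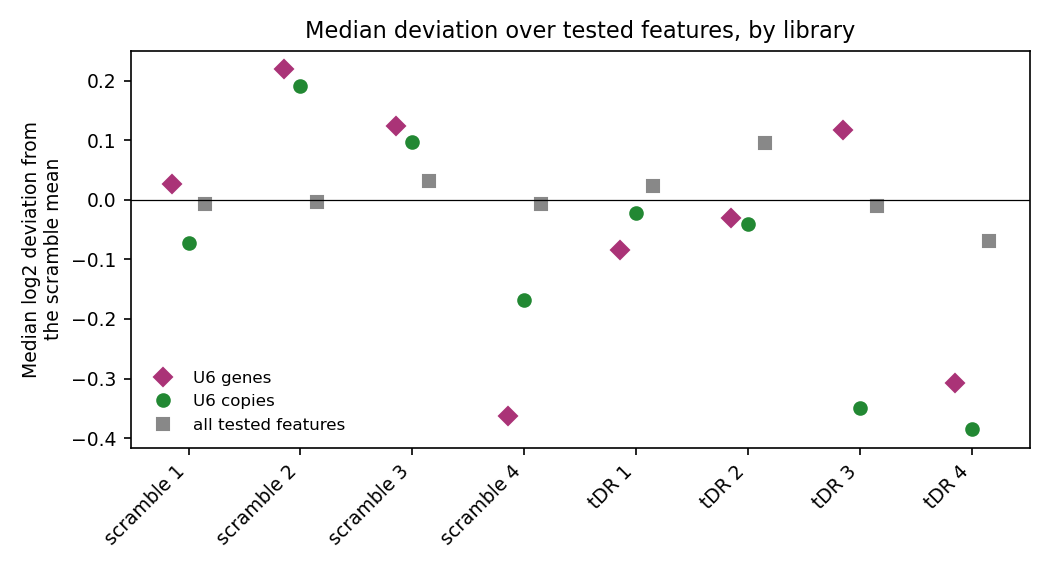
Median over features of the log2 deviation from the scramble mean, by library, for the 5 U6 genes (diamonds), the 137 tested U6 copies (circles) and all 1761 tested features (squares). The copies are low in tDR libraries 3 and 4 (-0.35 and -0.39), the genes are low in library 4 of both mimics, and all features stay near 0. The scaling plotted is TMM, and under scaling on microRNAs alone the copies' median fold change was 0.11.

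Summed over members, the 5 genes made 6498 ± 884 CPM in scramble and 6111 ± 769 CPM in tDR (SD, n = 4 each), and the copies 62219 ± 7706 and 56364 ± 9919 CPM. The copies-to-genes ratio was 9.01, 9.60, 9.57 and 10.2 in the scramble libraries and 9.84, 9.66, 8.10 and 9.19 in the tDR libraries, with overlap. These sums count every feature, also where several belong to 1 read set. With only the largest feature of each read set, the copies made 20139 ± 2503 CPM in scramble and 17726 ± 3175 CPM in tDR. The genes then made 5633 ± 738 and 5297 ± 711 CPM, and the ratio was 3.58 ± 0.19 against 3.34 ± 0.27 (SD, n = 4 each).

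The RNAs that work with U6 are given beside the 6.7% of all features that were called and the 21.5% with an unadjusted p below 0.05, and lists of this size cannot be told apart from those shares. Among the partner snRNAs (U1, U2, U4 and U5 genes) 0 of 9 were called by edgeR at an adjusted p below 0.05, with RNU1-1, which recognises the 5′ splice site before U6 does, at 0.41 (edgeR adjusted p = 0.0996; 745 to 825 CPM in scramble and 949 to 1228 CPM in tDR, with no overlap) and RNU4-2, a U4 gene, at -0.09 (edgeR adjusted p = 0.823). Among the minor-spliceosome RNAs 0 of 4 were called, and RNU6ATAC, the counterpart of U6 there, was at -0.48 (SE 0.15, edgeR adjusted p = 0.0662), with 33.8 to 41.2 CPM in scramble and 25.5 to 30.5 CPM in tDR, which do not overlap. Among the snoRNAs that guide methylation of U6, 0 of 6 were called, and their median was 0.13. At an unadjusted p below 0.05 there were 2 of 9 (RNU1-1 and RNU5E-1), 1 of 4 (RNU6ATAC) and 0 of 6 in the 3 lists. DESeq2 called RNU1-1 (higher) and RNU6ATAC (lower), limma on the deposited normalized values called RNU1-1, and limma-voom called 0 in these lists.

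Of the other RNA polymerase III transcripts with upstream promoters, 2 of 8 tested were called, both higher, where 5.34% of all features were: RNY4, a Y RNA that binds the Ro protein, rose by 0.76 on the log2 scale (SE 0.15, edgeR adjusted p = 0.0028) and RMRP, the RNA of the RNase MRP endonuclease, rose by 0.62 (SE 0.14, edgeR adjusted p = 0.0119). RN7SK, which holds the elongation factor P-TEFb inactive, was at 0.04 (edgeR adjusted p = 0.908). The median of the list was 0.18. With total counts RMRP was not called and the median was 0.04, while DESeq2 and limma on the deposited normalized values also called RNY1, a Y RNA, higher. The difference between these RNAs and U6 was not tested.

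The features outside the family whose log2 CPM went most closely with RNU6-1 over the 8 libraries, among 333 averaging at least 100 CPM, were 5 box C/D snoRNAs: SNORD44 (Pearson r 0.87), SNORD76 (0.82), SNORD82 (0.78), SNORD24 (0.77) and SNORD2 (0.77). These are the highest of many correlations over 8 libraries that share depth and scaling, and are given as a description.

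Of the checks on the libraries, a table entry named scr2 was at 3535 to 5679 CPM in the scramble libraries and 7.37 to 34.7 CPM in the tDR libraries, in step with the labels. The microRNAs of the miR-17-92 cluster, abundant in growing embryonic-derived lines, summed to 2104.5 to 3938 CPM in scramble and 1587 to 2799 CPM in tDR. Of 6 kidney epithelial microRNAs 3 were in the table, at 11.3 to 16.4 CPM in sum in scramble and 7.68 to 12.5 CPM in tDR. The 2 neuronal microRNAs listed, miR-124-3p and miR-9-5p, summed to 34.0 to 57.2 CPM in scramble and 31.9 to 57.2 CPM in tDR, above the kidney set. The endothelial miR-126-3p was at 3.68 to 6.06 and 4.59 to 8.72 CPM, the 2 muscle microRNAs found summed to 0.254 to 2.09 and 1.54 to 3.82 CPM, and the 1 blood microRNA found reached at most 0.948 CPM. Their part in the results was not tested.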

How the data were processed

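OTTR-seq small RNA libraries of HEK293 cells were analysed in 2 groups of 4 (scramble and tDR mimic). The authors deposited whole-number counts per small RNA feature, and a normalized signal in which counts are divided by library factors that differ for tRNA and other features, as read from the values. The submitters' processing notes name hg38. For the aligner, the counter and the handling of multiply matching reads the sources used here name nothing. The members and all gene lists were chosen with earlier results of these data known.

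Of 2964 table entries, 2 named for no gene were left out (0.000749% to 0.565% of a library). edgeR 4.0.16 (R 4.3.3) was run on the deposited counts with filterByExpr, TMM, a robust quasi-likelihood fit by group and Benjamini-Hochberg adjustment over 1761 features. It was tested on simulated counts before use. Levels are TMM-scaled CPM. The biological coefficient of variation was 19%. Alternatives were other scalings and filters, DESeq2 1.42.0, limma 3.58.1 (voom, and log2 of the normalized signal plus 1), each read set taken once, a replicate block and leaving out libraries. Exact Clopper-Pearson intervals (95%) and limits of 3 counts cover counting error only, since molecules were not told apart from their copies. No 2 libraries of a group were copies of each other (lowest chi-square per degree of freedom 13.2 over 12 pairs).

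Sequences, positions and host genes came from GENCODE release 29 (GRCh38), with gene types and synonyms from RefSeq, and edits were counted with edlib 1.3.9.post1. The genes named were the 5 U6 genes, the 6 highest copies, the 4 highest and 4 lowest fold changes among tested copies with a mean count of at least 20, and every member called. RNU6-236P was known from earlier results. Other members were named after their values were seen. Some member sequences and a host gene are not reported here.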

Additional observations from a re-analysis of the deposited data

Results flagged for a closer look

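In 3 of 46 groups of 4 libraries tested for the named members, 1 library stood apart from the other 3 by more than Dixon's 95% limit, where chance flags about 1 in 20 groups. RNU6-9 was at 547 CPM in tDR library 4, with the nearest tDR library at 685 CPM. RNU6-1225P was at 2.51 CPM in tDR library 4, with the nearest at 5.72 CPM, and RNU6-737P, one of the copies that rose, was at 2.23 CPM there, with the nearest at 4.17 CPM. All 3 are the lowest value of the tDR group and fall in the same library.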

How the results depend on the processing

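The number of U6 features called was 7 of 142, beside 118 of 1761 over all features. It was 3 of 142 under TMM on microRNAs alone (3 higher, 0 lower), beside 158 of 1761. With no filter it was 11 of 281 (5 higher, 6 lower), beside 131 of 2760. A mean count of at least 50 gave 12 of 88 (0 higher, 12 lower), beside 123 of 1110 (77 higher, 46 lower). DESeq2's Wald test gave 16 of 142 (2 higher, 14 lower), beside 194 of 1761. Total counts gave 9 of 142 (0 higher, 9 lower), beside 93 of 1761. DESeq2 size factors gave 10 of 142 (2 higher, 8 lower), beside 136 of 1761. Leaving out 1 library gave 1 to 28 (lowest without scramble library 3 or tDR library 4, highest without tDR library 1), and 1 without tDR libraries 3 and 4. Over all features, 118 were called (94 higher, 24 lower), 194 by DESeq2's Wald test (133 higher, 61 lower), 188 by limma on the normalized signal (148 higher, 40 lower) and 65 to 164 when 1 library was left out. The split over all features was 157 higher and 1 lower with TMM on microRNAs alone and 54 higher and 39 lower with total counts. Same-numbered libraries did not deviate together (correlations -0.36, -0.19, -0.28 and -0.12). The labels state no pairing, and these correlations cannot exclude pairing for some features. The median over the 5 U6 genes was low in library 4 of both mimics (-0.36 in scramble and -0.31 in tDR). With the number as a replicate block, 39 features and 0 U6 features were called. Under TMM on microRNAs alone the median log2 fold change turned to 0.12 over members, 0.25 over genes and 0.11 over copies, and single members to 0.23 (RNU6-1, RNU6-6P, RNU6-5P), 0.26 (RNU6-2), 0.25 (RNU6-7, RNU6-8), 0.18 (RNU6-9, RNU6-19P), 0.22 (RNU6-36P) and 0.19 (RNU6-12P, RNU6-145P). Without tDR library 4, RNU6-1, RNU6-6P and RNU6-5P turned to 0.0098, 0.0097 and 0.0093; leaving out 1 library at a time, these 3 ranged from -0.176 to those values. Without tDR libraries 3 and 4, RNU6-1, RNU6-6P, RNU6-5P and RNU6-36P turned to 0.083, 0.084, 0.083 and 0.082, RNU6-19P and RNU6-12P to 0.10, RNU6-145P to 0.11 and RNU6-105P to -0.19, and the copies' median was -0.033. The cause of these changes was not tested. Of 445 alternative values for named members, 364 kept their direction and side of the threshold, 54 lost the call, 5 gained one and 22 turned. Depth limits the copies below about 10 CPM, where counts per library are often under 100.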
